A study of Saccharomyces cerevisiae with 4 samples.

Results

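The yeast glucose-repression kinase Snf1 acts with partner subunits, against a phosphatase, and on a pair of transcription activators. For this machinery, 10 of the 6256 genes on the array were followed. They were chosen by name, but with earlier results of these data known. The Snf1 complex genes were *SNF1*, *SNF4*, *SIP1*, *SIP2* and *GAL83*, the phosphatase genes *REG1*, *REG2* and *GLC7*, and the activator genes *CAT8* and *ADR1*. The question was whether the transcripts of these regulators differ between *esl1Δ esl2Δ* cells and wild-type cells on glucose. The mutant lacks *ESL1* and *ESL2*, which encode a pair of related proteins with a PIN nuclease domain, and carries *esl1*Δ::*KAN* and *esl2*Δ::*NAT* in the strain Y52 (W303-1A). Both strains are MATa haploids with *RAD5* and share the alleles *ura3-1*, *trp1-1* and *ade2-1*, with *leu2-3, 122* at *LEU2* and *can1-100* at *CAN1*, so that the wild type is the same strain without the deletions. Cells were grown to log phase at 30° in YPD, a rich medium with 2% glucose. The RNA of both strains was hybridized together, each in its own dye, in 3 biological replicates on 4 arrays of 1 slide, the fourth array being a repeat of replicate 3 with the dyes exchanged. The sources used here give one double-mutant strain for the arrays and do not say how the replicate cultures were separated, so the spread between replicates may be in part technical.

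Snf1 is the yeast member of the AMP-activated protein kinase family. It works as a complex of the catalytic subunit Snf1, the activating subunit Snf4 and one of the alternative β-subunits Sip1, Sip2 or Gal83, which direct the kinase to different places in the cell. When glucose is plentiful, the phosphatase Glc7, held to the kinase by the targeting subunit Reg1, keeps Snf1 dephosphorylated and inactive, and repressors of the Mig family shut off genes for the use of other carbon sources. When glucose runs out, Snf1 is phosphorylated and active, Mig1 leaves the nucleus, and the activators Cat8 and Adr1 switch on gluconeogenesis, the glyoxylate cycle, ethanol use and fatty acid oxidation. Much of this control acts on proteins, which the arrays did not measure.

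Values are log2 ratios of *esl1Δ esl2Δ* over wild type, one per biological replicate, and the mean of the 3 replicates was tested against 0 with limma across 6254 genes, with Benjamini-Hochberg adjustment. Beside them are normalized intensities of the same probe, in the scanner's arbitrary units, which cannot be compared between genes. All 10 genes were well above background in both channels on 4 of 4 arrays, and each had 1 probe. The deleted genes followed the labels: *ESL1* had log2 ratios of -4.77, -4.33 and -4.41 and *ESL2* of -3.65, -3.99 and -3.65. The MATa genes *MFA1*, *MFA2*, *STE2*, *BAR1* and *STE6* were well above background on all 4 arrays in both strains, whereas the MATα gene *MFALPHA2* was so on 2 of 4 in the mutant and 1 of 4 in wild type, *MFALPHA1* on 3 and 2, and *STE3* on 4 and 4 but with intensities of only 155 to 205 in the mutant and 198 to 264 in wild type. Replicate 3 stood apart from the other two: across genes, its log2 ratios correlated with those of replicate 1 at r = 0.101 and with those of replicate 2 at r = 0.214, against r = 0.681 between replicates 1 and 2 and r = 0.844 between both arrays of replicate 3.

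None of the 10 transcripts passed the test over 3 replicates. Those with the largest mean ratios were *REG2* and *CAT8*, both higher in the mutant on every array, and the means of the other 8 lay between -0.22 and 0.36. An adjusted p below 0.05 was reached by 0 of 10, against 0.112% of the 6254 genes (limma), while 4 of 10 (*SNF4*, *SIP2*, *REG2* and *CAT8*, all higher) had an unadjusted p below 0.05, against 13.3% of all genes. The mean passed 2-fold for 1 of 10, *REG2*, against 0.799% of all genes. By the sign of the ratios, with no minimum size, 5 of 10 were higher in all 3 replicates (*SNF4*, *SIP1*, *SIP2*, *REG2* and *CAT8*), against 18.7% of all genes, and 1 of 10, *REG1*, was lower in all 3, against 18.5%. The median log2 ratio of the 10 genes was 0.09, and that of all genes was -0.0047. The 95% interval of the mean lay wholly inside 2-fold for 8 of 10 genes, the exceptions being *REG2* and *CAT8*, against 94.6% of all genes.

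**Figure D1:**
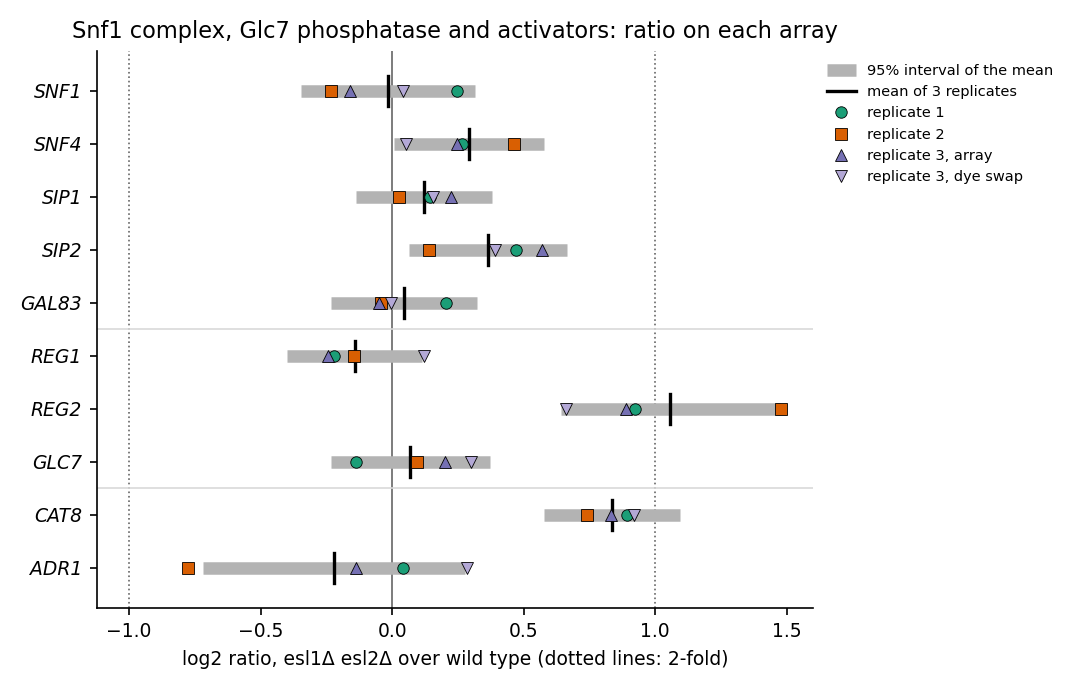
Log2 ratio of *esl1Δ esl2Δ* over wild type (horizontal axis) for the 10 genes (vertical axis, grouped as Snf1 complex, phosphatase and activators) on each of 4 arrays, with the mean of 3 replicates (black line) and its 95% interval from limma (grey bar). *REG2* and *CAT8* lie right of 0 on all 4 arrays, with means of 1.06 and 0.84, while the other means lie between -0.22 and 0.36.

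*SNF1*, which encodes the catalytic subunit, had log2 ratios of 0.25, -0.23 and -0.06. Its intensities were 13692, 7690.4, 7415 and, on the dye swap, 7929.6 in the mutant, against 11533, 9043, 8290 and 7710.1 in wild type. The strains overlapped, and the mutant was the higher on 2 of the 4 arrays. The mean was -0.02 ± 0.24 (SD, n = 3; limma, adjusted p = 0.969), with a 95% interval of -0.35 to 0.31, which holds a change of up to 1.24-fold or a fall to 0.787 of the wild-type level.

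*SNF4* encodes the subunit that binds adenine nucleotides and relieves the autoinhibition of the kinase. Its intensities were 35342, 36739.5, 33080.1 and 30459 in the mutant, against 29415, 26609, 27910 and 29346 in wild type. The lowest mutant value lay above the highest wild-type value, a separation in this direction that 2.85% of all genes showed. The log2 ratios were 0.26, 0.47 and 0.15, with a mean of 0.29 ± 0.16 (SD, n = 3), or 1.23-fold (95% interval 1.01 to 1.49). The adjusted p was 0.365 (limma), and on the dye swap the ratio was only 0.05, against 0.25 on the other array of the same RNA.

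Of the β-subunit genes, *SIP2* had the largest ratios. Sip2 holds the kinase in the cytoplasm and at the plasma membrane. Its intensities were 2167, 1494, 1906 and 1644 in the mutant, against 1563, 1354, 1285 and 1252 in wild type, so that the mutant was higher within each array, although the mutant value of replicate 2 lay below the wild-type value of replicate 1. The log2 ratios of 0.47, 0.14 and 0.48 averaged 0.36 ± 0.19 (SD, n = 3), or 1.29-fold (95% interval 1.04 to 1.59; limma, adjusted p = 0.309). *GAL83*, the paralog of *SIP2* and the β-subunit that takes the kinase into the nucleus when glucose is lacking, had log2 ratios of 0.21, -0.04 and -0.03, with intensities of 2949 to 4130 in the mutant and 3039 to 3579 in wild type. Its mean of 0.05 ± 0.14 (SD, n = 3; adjusted p = 0.883) had a 95% interval of -0.23 to 0.32. *SIP1*, whose product is the vacuolar β-subunit, had log2 ratios of 0.14, 0.03 and 0.19, which averaged 0.12 ± 0.08 (SD, n = 3; adjusted p = 0.659), with intensities of 2085 to 2567 in the mutant and 2048 to 2322 in wild type. The log2 ratio of *SIP2* exceeded that of *GAL83* by 0.26, 0.19 and 0.51 in the 3 replicates (mean 0.32 ± 0.17, SD; two-sided exact sign-flip permutation test, p = 0.25, the smallest that 3 replicates allow).

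**Figure D2:**
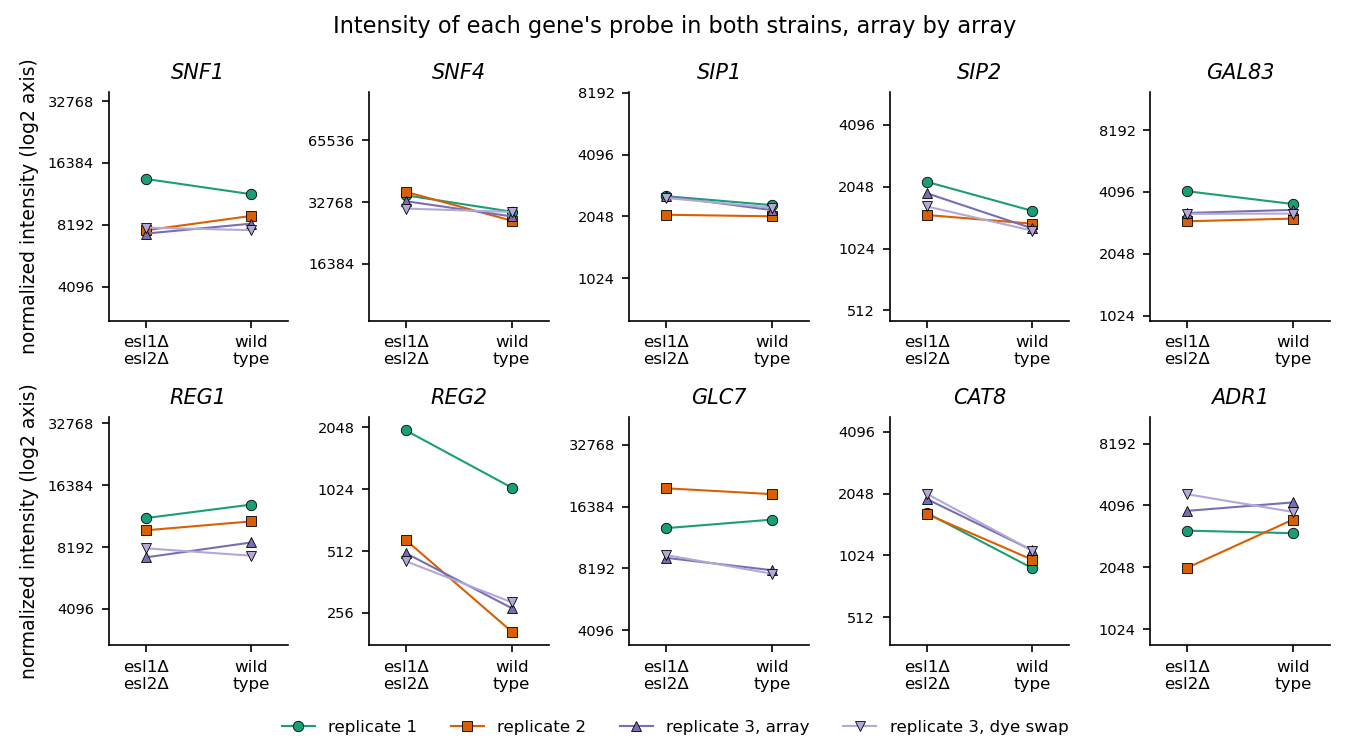
Normalized intensity (vertical axis, log2 scale spanning the same fold range in each panel) of the probe of each gene in *esl1Δ esl2Δ* and wild type, with a line for each of the 4 arrays. The lines of *CAT8* run down from mutant to wild type at nearly the same height on all arrays (1629 to 2043 in the mutant, 886 to 1083 in wild type), whereas those of *REG2* run down from very different heights.

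In the phosphatase, the targeting subunit genes *REG1* and *REG2* lay on opposite sides of 0. *REG1*, the main targeting subunit of Glc7 in glucose repression, had intensities of 11335, 9888, 7297 and 8083 in the mutant, against 13193, 10929.8, 8629 and 7438 in wild type. The mutant was lower on the first 3 arrays and higher on the dye swap, with log2 ratios of -0.22, -0.14, -0.24 and 0.12 on the 4 arrays. The mean over replicates was -0.14 ± 0.08 (SD, n = 3; limma, adjusted p = 0.591), with a 95% interval of -0.40 to 0.12. *GLC7*, the essential catalytic subunit that also serves many other processes through other targeting subunits, had log2 ratios of -0.14, 0.09 and 0.25 which averaged 0.07 ± 0.20 (SD, n = 3; adjusted p = 0.829; 95% interval -0.23 to 0.37). Its intensities of 12871, 20113, 9222 and 9509 in the mutant, against 14158, 18839, 8029 and 7721 in wild type, differed far more between replicates than between strains.

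*REG2* encodes a second Glc7 targeting subunit related to Reg1, which can replace Reg1 in part. Its intensities were 1979, 579, 499.9 and 457 in the mutant, against 1044, 208, 270.1 and 289 in wild type. The mutant was higher within every array. The wild-type value of replicate 1 lay above the mutant values of replicates 2 and 3, so that the strains overlapped across arrays. The log2 ratios were 0.92, 1.48 and 0.78, with 0.89 and 0.66 on both arrays of replicate 3. The mean of 1.06 ± 0.37 (SD, n = 3) corresponded to 2.08-fold (95% interval 1.56 to 2.78) and ranked 43 of 6254 by size, with an adjusted p of 0.150 (limma). *REG2* exceeded *REG1* by 1.14, 1.62 and 0.84 on the log2 scale in the 3 replicates (mean 1.20 ± 0.40, SD; two-sided exact sign-flip permutation test, p = 0.25). It passed 2-fold through replicate 2: without that replicate the mean was 0.85. The mean was also below 1 with median centring (0.997) and in a fit of 4 arrays with a dye term (0.88), which takes the arrays of replicate 3 as separate samples and gives that replicate 66.7% of the weight.

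*CAT8* encodes the zinc cluster activator of gluconeogenic genes, whose own gene is known to be repressed by glucose. Its intensities were 1648, 1629, 1927 and 2043 in the mutant, against 886, 975, 1083 and 1079 in wild type. Every mutant value lay above every wild-type value. Such a separation was shown by 2 of 10 genes, *CAT8* and *SNF4*, against 2.85% of all genes. The log2 ratios were 0.90, 0.74 and 0.88, with 0.83 and 0.92 on both arrays of replicate 3. The mean of 0.84 ± 0.08 (SD, n = 3) corresponded to 1.79-fold (95% interval 1.49 to 2.14), ranked 76 of 6254 by size and had an adjusted p of 0.117 (limma). The calls of both genes depended on whether replicate 3 was in the fit. Without it, *CAT8* had a mean of 0.82 and *REG2* of 1.20, each with an adjusted p of 0.0186 (limma). Thus 2 of 10 genes passed, against 10.6% of all genes. The ratio of *CAT8* in replicate 3 lay between those of replicates 1 and 2. Over all genes, 662 passed without replicate 3, against 7 with it.

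*ADR1* encodes the activator of *ADH2* and of peroxisomal genes. Its intensities were 3085, 2034, 3851 and 4640.3 in the mutant, against 2998, 3488, 4233 and 3806 in wild type. The strains overlapped, and only the array of replicate 2 separated them clearly, with the mutant lower. The log2 ratios of 0.04, -0.78 and 0.07 averaged -0.22 ± 0.48 (SD, n = 3; limma, adjusted p = 0.674), with a 95% interval of -0.72 to 0.28, the widest of the 10. Both arrays of replicate 3 lay on opposite sides of 0, at -0.14 and, on the dye swap, 0.29. The direction rested on replicate 2, without which the mean was 0.06. *CAT8* exceeded *ADR1* by 0.85, 1.52 and 0.80 on the log2 scale (mean 1.06 ± 0.40, SD; two-sided exact sign-flip permutation test, p = 0.25).

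The rest of the pathway was read from 7 lists holding 60 genes, of which none had an adjusted p below 0.05 (limma) and 16 (26.7%) had an unadjusted p below 0.05, against 0.112% and 13.3% of all genes. Several of their genes (*HXK1*, *MAL33* and *JEN1* among them) are ones that the study itself picked out from these arrays. Their direction here is therefore not independent evidence. For *HXK1*, the study also reported a rise by reverse-transcription PCR and, for the protein, by Western blot. Of 3 kinases that phosphorylate Snf1, none passed an unadjusted p of 0.05. *ELM1*, which also acts in the control of cell shape, had log2 ratios of -0.04, -0.07 and -0.35. *TOS3* had ratios of -0.13, -0.26 and 0.84, with the replicates on opposite sides of 0. Among 12 other Glc7 partners, 4 were higher and 2 lower in all 3 replicates, against 18.7% and 18.5% of all genes, and the median was -0.06. One of them, *GAC1*, which targets Glc7 to glycogen synthase, passed 2-fold with log2 ratios of 1.69, 1.44 and 0.84 (mean 1.32 ± 0.44, SD; limma, adjusted p = 0.131). For *GAC1* the strains overlapped across arrays, with intensities of 762 to 2671 in the mutant and 237 to 1537 in wild type. *GIP3* was the next in size, with ratios of -0.24, -0.29 and -0.51.

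Among 11 other activators, 3 were higher and 3 lower in all 3 replicates, near the 18.7% and 18.5% of all genes, with a median of 0.04 and none past 2-fold. *HAP4*, the regulated subunit of the activator of respiratory genes, had log2 ratios of 0.32, 0.30 and 0.97. *SIP4*, a zinc cluster activator that is itself a Cat8 target, had ratios of -0.92, -0.24 and -0.26 and, in the mutant channel, exceeded background clearly on 3 of 4 arrays. Its mean of -0.47 was -0.25 without replicate 1, -0.72 with a normexp offset of 0 and -0.99 with the scanner software's ratio.

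Among 7 repressors, *MIG2* and *MIG3*, which encode glucose-induced relatives of Mig1, were both past 2-fold and lower in the mutant, and the other 5 did not hold one sign over the replicates. *MIG2* had intensities of 3397, 3492, 3926 and 4001 in the mutant, against 8721, 7416, 6088 and 6301 in wild type. Its log2 ratios were -1.36, -1.09 and -0.64 (mean -1.03 ± 0.36, SD, n = 3; limma, adjusted p = 0.150). *MIG3* had intensities of 299, 293, 305 and 310.2 in the mutant, against 1232, 1319, 445 and 472 in wild type. The strains did not overlap for either gene, but how many of all genes separated in this direction was not counted. The mutant values of *MIG3* lay close together, while its wild-type values fell into a high pair (replicates 1 and 2) and a low pair (both arrays of replicate 3). Its log2 ratios were -2.05, -2.17 and -0.58 (mean -1.60 ± 0.89, SD, n = 3; adjusted p = 0.196). Without replicate 1, *MIG3* alone of the 7 stayed past 2-fold. *MIG2* is the chromosomal neighbor of *SIP2*, and *MIG3* of *GAL83*, in the R64 annotation. *SIP2* exceeded *MIG2* by 1.83, 1.23 and 1.12 on the log2 scale (mean 1.39 ± 0.38, SD), and *GAL83* exceeded *MIG3* by 2.25, 2.13 and 0.55 (mean 1.64 ± 0.95, SD), each with a two-sided exact sign-flip permutation p of 0.25, so that a low ratio of the repressor gene stood beside a β-subunit gene without one. Both repressor genes were named for means past 2-fold, so the size of these differences follows in part from that choice and is not separate support. *REG2* lies next to *RFS1*, which had ratios of 0.66, 0.84 and 0.02, and next to *REB1*, with ratios of -0.19, -0.22 and 0.25.

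**Figure D3:**
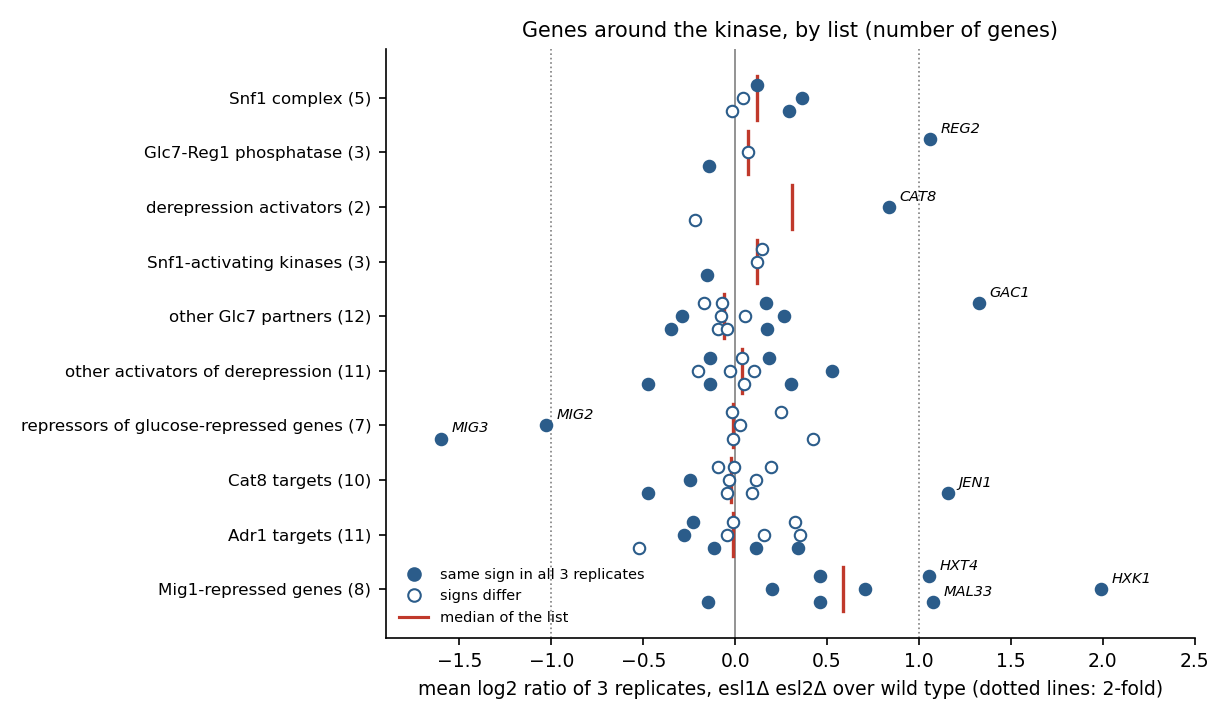
Mean log2 ratio of 3 replicates, *esl1Δ esl2Δ* over wild type (horizontal axis), for each gene of the 3 member groups and 7 pathway lists (vertical axis, with the number of genes). Filled points had the same sign in all 3 replicates, red lines are list medians, and the genes labelled are those with a mean past 2-fold and *CAT8*; the Mig1-repressed genes have a median of 0.59 and the other pathway lists have medians between -0.06 and 0.12.

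The genes that the activators and repressors control were read next. Of 8 genes known to be repressed by Mig1, 7 were higher in all 3 replicates, against 18.7% of all genes, and 1, *GAL1*, was lower. The list's median was 0.59, and 6 of 8 had an unadjusted p below 0.05, against 13.3% of all genes. The list was chosen with earlier results of these data known. The study had picked *HXK1* and *MAL33* from these arrays, so these counts are not independent evidence. *HXK1*, which encodes a hexokinase made in low glucose, had log2 ratios of 2.98, 1.94 and 1.05. *HXT4*, a glucose transporter gene, had ratios of 1.14, 1.30 and 0.72, and *MAL33*, an activator gene of the maltose genes, had 1.16, 1.09 and 0.97 (adjusted p = 0.0815). These 3 passed 2-fold in the mean, all higher in the mutant. Across arrays the strains overlapped for *HXK1* and *HXT4*. Their wild-type intensities were 7872, 8312, 33512 and 28997 for *HXK1* and 3901, 3598, 13499 and 12409 for *HXT4*, higher in replicate 3. For *MAL33* the strains did not overlap, with the mutant higher, as in 2.85% of all genes. Leaving out any 1 replicate kept the list's median between 0.53 and 0.64, with 2 genes past 2-fold without replicate 2 and 3 otherwise, an alternative chosen after seeing the data.

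The 10 Cat8 targets did not follow *CAT8* in all replicates. Their median log2 ratio was -0.81 in replicate 1, where *CAT8* was at 0.90, but 0.25 in replicate 2 and 0.57 in replicate 3. In replicate 1, 9 of 10 lay below 0, against 49.8% of all genes, while 8 of 10 lay above 0 in replicate 2 and 7 of 10 in replicate 3, against 49.1% and 50.2%. *FBP1*, which encodes the gluconeogenic fructose-1,6-bisphosphatase, shows the pattern and was chosen after its values were seen. Its intensities were 536, 1153, 1771 and 1703 in the mutant, against 2016, 414, 897 and 827 in wild type. The wild-type value of replicate 1 was the highest of all, and the mutant value was also its lowest there. For 7 of 10 Cat8 targets the highest of the 4 wild-type intensities was on the array of replicate 1, against 29.1% of 6252 genes, whereas for the mutant this was so for 1 of 10, against 33.6%. Without replicate 1 the median of the list was 0.51, with 2 genes past 2-fold, while over 3 replicates it was -0.02 with 1 such gene, and without replicate 2 or replicate 3 there were 0. Culture and array cannot be told apart here, and what set replicate 1 apart was not tested.

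*JEN1*, the lactate transporter gene, was the Cat8 target with the largest mean. Its intensities were 923, 1577, 1382 and 1524 in the mutant, against 892, 487, 437 and 438 in wild type. The strains did not overlap, with the mutant higher, as in 2.85% of all genes. In replicate 1 they were nearly equal, and the log2 ratios were 0.05, 1.70 and 1.73 (mean 1.16 ± 0.96, SD, n = 3, with adjusted p = 0.291 by limma). *PCK1*, the gene of phosphoenolpyruvate carboxykinase, lies next to the deleted *ESL2* and had ratios of -1.12, 0.63 and 0.76, and a part of the deletion in these values was not tested.

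**Figure D4:**
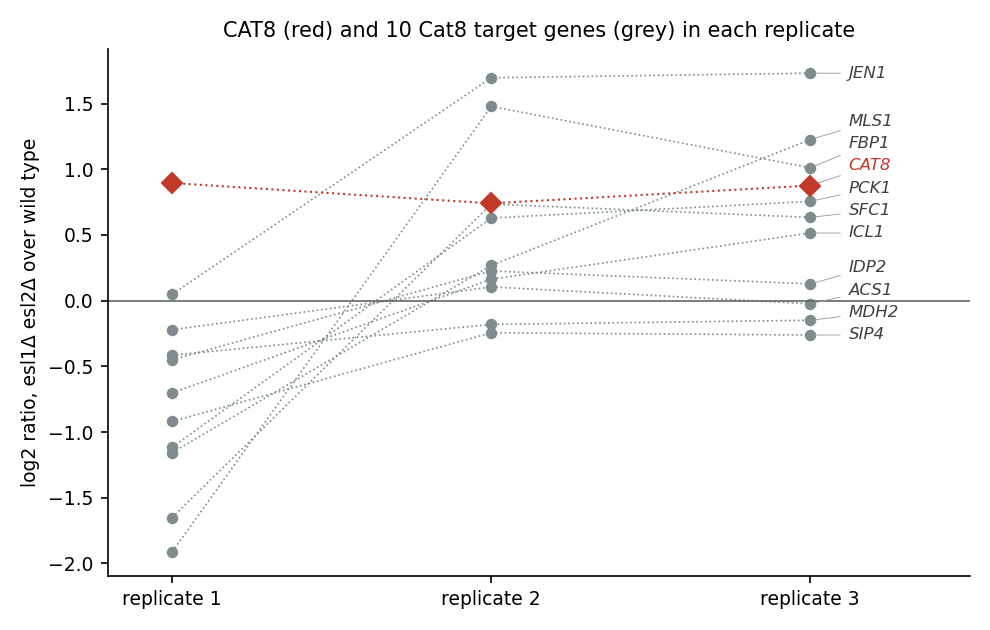
Log2 ratio of *esl1Δ esl2Δ* over wild type (vertical axis) for *CAT8* (red) and 10 Cat8 target genes (grey) in each of 3 replicates (horizontal axis, with no order among them), dotted lines joining the points of a gene. *CAT8* keeps between 0.74 and 0.90, while 9 of 10 targets are below 0 in replicate 1 and 8 and 7 of 10 are above 0 in replicates 2 and 3.

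Of 11 Adr1 targets, 2 were higher and 3 lower in all 3 replicates, near the 18.7% and 18.5% of all genes, none passed 2-fold, and the median was -0.01. *ADH2*, the ethanol-oxidizing alcohol dehydrogenase gene, had log2 ratios of -0.25, 0.40 and 0.90, again with replicate 1 on the other side of 0. *POT1*, a gene of peroxisomal fatty acid oxidation, had ratios of -0.16, -1.53 and 0.12. In replicate 2, where *ADR1* was at -0.78, 5 of the 11 targets lay above 0 and 6 below.

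By the distance of the 3 replicate log2 ratios, the genes most like *REG2* were *MPC3* (0.273; ratios 0.81, 1.47 and 0.53), a mitochondrial pyruvate carrier gene, *HXT4* (0.290) and *MAL32* (0.323; ratios 0.89, 1.17 and 0.88), a maltase gene. *MAL32* and *HXT4* have near-identical or closely related copies in the genome, and whether their probes tell the copies apart was not tested. The same holds for the paralog pairs *REG1* and *REG2*, *SIP2* and *GAL83*, and *MIG2* and *MIG3*.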

How the data were processed

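Starting with 500 ng of total RNA, the authors obtained and deposited Agilent Feature Extraction 10.1.1.1 output, from which the median foreground and background spot intensities were used. These deposited intensities are not normalized. The log10 ratios of red over green in the same deposited files were made by the scanner software after its own background and dye correction, and the series table holds the same log10 ratios.

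All steps used limma 3.58.1 and the data.table package (version 1.17.8) under R 4.3.3. Background correction was by normexp (offset 50) and each array was normalized by loess, with 536 control spots and 291 to 486 outlier spots per array left out. The spots of a probe were averaged, the dye swap was turned and averaged with the other array of replicate 3, and 3 ratios were tested against 0 (lmFit and eBayes, two-sided, adjustment over 6254 genes, threshold 0.05; 5.27 total degrees of freedom). Intensities were additionally scaled between arrays by Aquantile for description only. A 2-fold change is a mean log2 ratio of 1 in size.

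Over a background of 22 to 49.5, median gene spot intensities were 1660 to 5186 per channel. Of the 15208 gene spots, 92.4% to 98.0% were well above background, with none saturated. The arrays were few, but what limits the precision was not tested. An adjusted p below 0.05 (limma) was reached by 662 genes without replicate 3, against 7 with it. Probes were matched by systematic name, 5712 of 6256 to locus tags of R64. The files' array design is of an older build, so that no coordinates are given.

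Named were all 10 members, the deleted genes, every list gene past the threshold or 2-fold, the 2 largest of each list, and the 3 genes nearest to *REG2*; others are marked as chosen later or are neighbors or markers. The members and lists were chosen with earlier results of these data known. The limma script was tested on simulated data.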

Additional observations from a re-analysis of the deposited data

How the results depend on the processing

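Of 130 values of the 10 genes under 13 alternatives (background correction, normalization, outlier and dim spots, the dye swap, the model and each replicate left out), 121 kept their direction and their side of the threshold. The count of genes past 2-fold was 0 with median centring, 0 with 4 arrays and a dye term, and 2 at 1.5-fold (*REG2* and *CAT8*), and 0 to 1 with each replicate left out. The count called by limma was 0 under every alternative except without replicate 3, so that it ran between 0 and 2 with each replicate left out. *SNF1* turned to 0.0307 with median centring and 0.0181 with the dye swap alone for replicate 3. With each replicate left out, *SNF1* ran between -0.147 and 0.0937, *GAL83* between -0.0354 and 0.0894, *GLC7* between -0.0215 and 0.172, *ADR1* between -0.368 and 0.0579, and *TOS3* between -0.198 and 0.353. Over all alternatives *CAT8* stayed between 0.81 and 0.91 with adjusted p of 0.0186 to 0.795, and *REG2* between 0.85 and 1.25 with adjusted p of 0.0186 to 0.829. Without replicate 3, where 10.6% of all genes passed, *GAC1*, *MIG2*, *MIG3*, *HXK1*, *HXT4* and *MAL33* passed the threshold too. *MAL33* also did so with median centring (limma, adjusted p = 0.0353). Of the lists, only the named genes, chosen for their size, were followed through the alternatives. Mean signals were not used here, the series table equals the Feature Extraction ratio, and the fit with a dye term was made without a block for replicate 3, since it fits the one swapped array exactly and a correlation was obtained for 0 of 6252 genes. With 3 ratios, an exact sign-flip permutation test cannot go below p = 0.25.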

Other observations

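The intensities of the 10 genes also differed between arrays in both strains. Each replicate had its own arrays, so culture and array cannot be told apart. For 7 of 10 genes, among them all 5 of the Snf1 complex, the highest of 4 wild-type intensities was on the array of replicate 1, against 29.1% of 6252 genes, and in the mutant this was so for 6 of 10, against 33.6%. The count takes no minimum margin. In wild type, *SNF4* was at 29415 on that array against 29346 on the dye swap, and *SIP1* at 2322 against 2256. *REG2* on the array of replicate 1 was at 1979 in the mutant and 1044 in wild type, above its values in the same strain on the other arrays, which were 457 to 579 in the mutant and 208 to 289 in wild type. The repressor genes *NRG1* and *NRG2*, chosen after their values were seen, differed between replicates in the strain ratio. *NRG1* had log2 ratios of -0.27, -0.19 and 1.21 and *NRG2* of -0.13, 0.20 and 1.20, so that both were above 2-fold in replicate 3. In wild type, *NRG1* was at 1560, 2660, 1164 and 1301 and *NRG2* at 3117, 2283, 1061 and 1157. In the mutant, *NRG1* was at 1290, 2332, 2797 and 2902 and *NRG2* at 2845, 2617, 2697 and 2402.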
